A study of Homo sapiens with 14 samples.

Results

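HOX genes encode homeodomain transcription factors, and 39 of the 19726 genes in a pair of RNA-seq count tables from CHP-134 cells bear the name of a member of the HOXA, HOXB, HOXC or HOXD cluster. Members were taken by that symbol alone, and 31 were listed in the table of engineered cells while all 39 were listed in the table of parental cells. CHP-134 is an established human neuroblastoma cell line with amplified MYCN. The engineered cells were G418-selected lines carrying a lentiviral Tet-On vector for enhanced green fluorescent protein (EGFP) or for OmoMYC, a mutated MYC dimerization domain that acts as a genetic inhibitor of MYC proteins, and both lines received 1 µg/ml doxycycline for 3 days (n = 3 libraries each). Parental cells carrying no degron-tagged protein received 500 nM dTAG47, the degrader compound used elsewhere in the study, or dimethyl sulfoxide (DMSO) for 18 h (n = 4 libraries each). The EGFP and OmoMYC cells were separately made lines, so a difference between the lines themselves cannot be told apart from an effect of OmoMYC. The comparisons addressed what inhibition of N-MYC does to transcript levels, and whether dTAG47 has effects of its own.

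HOX genes specify position along the body axis, and each cluster is read in the order of its genes. Members at the 3′ end of a cluster, with low paralog numbers, are expressed early and toward the head, and members at the 5′ end, with high paralog numbers, are expressed later and toward the tail and the tips of the limbs. Retinoic acid opens the 3′ end of the clusters, trithorax-type complexes keep active genes on, Polycomb complexes keep inactive genes off, and HOX proteins bind DNA with cofactors of the PBX and MEIS families. In the sympathoadrenal lineage, from which neuroblastoma arises, the HOX genes in use reflect the axial level of the neural crest, and HOXC9 has been tied to the retinoic acid response of neuroblastoma cells.

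In hg19 coordinates, with gene models of GENCODE lifted to GRCh37, the HOXA genes lay on chromosome 7 (11 genes), and the HOXB genes spanned chr17:46605888-46806112 (10 genes), the HOXC genes chr12:54332615-54449814 (9 genes) and the HOXD genes chr2:176957449-177055635 (9 genes). MYC and N-MYC bind E-boxes, of which CACGTG is the canonical form, so RefSeq promoter windows (250 bases before to 50 after an annotated start, build GRCh38.p14) were searched for these letters, which read the same on both strands. CACGTG occurred in the windows of 9 of the 20 HOX genes with a window, in 9 of 27 HOX windows, beside 7.26% of 35116 windows over all genes. HOXA3 and HOXA10 had more than 1 window. HOXC4 and HOXC5 had the same window, without CACGTG, which was counted for each of them. The variant CACGCG, searched on both strands, occurred in 2 HOX windows, both of HOXA3, beside 11.4% of all windows. Of the genes that passed the test with OmoMYC, 1 of 3 higher members with a window and 3 of 5 lower members with a window held CACGTG, and 2 of 5 tested members that did not pass held it. The 250 bases before the start are shown for the 4 called genes with the motif (capitals) and for HOXA11 and HOXA13, neighboring posterior HOXA genes without it that passed the test in opposite directions. The first base of the motif lay 47 bases before the start in HOXD3, 106 in HOXD10, 90 in HOXD11 and 131 in HOXD13.
HOXD3 promoter, chr2:176157057-176157306, plus strand: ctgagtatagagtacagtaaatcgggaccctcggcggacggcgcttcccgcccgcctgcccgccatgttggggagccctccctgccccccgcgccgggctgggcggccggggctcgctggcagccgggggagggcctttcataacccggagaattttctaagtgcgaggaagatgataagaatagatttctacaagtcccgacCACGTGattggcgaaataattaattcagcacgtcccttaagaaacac
HOXD10 promoter, chr2:176116528-176116777, plus strand: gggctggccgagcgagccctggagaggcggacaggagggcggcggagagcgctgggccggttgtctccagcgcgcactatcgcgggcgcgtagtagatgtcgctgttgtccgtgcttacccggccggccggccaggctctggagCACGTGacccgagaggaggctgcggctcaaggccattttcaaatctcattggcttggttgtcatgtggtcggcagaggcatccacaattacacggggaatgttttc
HOXD11 promoter, chr2:176107030-176107279, plus strand: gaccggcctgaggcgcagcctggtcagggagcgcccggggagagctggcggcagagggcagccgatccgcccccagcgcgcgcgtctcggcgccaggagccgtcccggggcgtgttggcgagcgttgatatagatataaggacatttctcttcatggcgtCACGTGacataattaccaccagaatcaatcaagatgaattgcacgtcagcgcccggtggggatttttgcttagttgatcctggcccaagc
HOXD13 promoter, chr2:176092471-176092720, plus strand: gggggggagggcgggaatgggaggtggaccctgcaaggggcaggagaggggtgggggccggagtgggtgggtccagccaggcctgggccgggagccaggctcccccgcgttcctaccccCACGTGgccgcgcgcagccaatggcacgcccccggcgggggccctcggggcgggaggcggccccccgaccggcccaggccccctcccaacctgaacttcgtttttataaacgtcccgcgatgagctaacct
HOXA11 promoter, chr7:27185233-27185482, minus strand: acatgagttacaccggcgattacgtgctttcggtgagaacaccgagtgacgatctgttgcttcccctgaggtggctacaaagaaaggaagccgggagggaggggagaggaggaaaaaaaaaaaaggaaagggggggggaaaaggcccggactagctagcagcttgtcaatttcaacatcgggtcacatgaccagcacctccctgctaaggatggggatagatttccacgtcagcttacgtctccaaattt
HOXA13 promoter, chr7:27200092-27200341, minus strand: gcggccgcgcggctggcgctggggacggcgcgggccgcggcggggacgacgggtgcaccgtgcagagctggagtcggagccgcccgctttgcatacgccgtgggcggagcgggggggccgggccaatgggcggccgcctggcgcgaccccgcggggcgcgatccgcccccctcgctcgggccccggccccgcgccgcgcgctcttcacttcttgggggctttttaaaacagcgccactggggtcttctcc
A match in these letters is a description of sequence and says nothing about binding in these cells.

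HOX transcription in CHP-134 cells came from the HOXA, HOXC and HOXD clusters, and the HOXB cluster was at or near 0. Levels between genes were compared in CPM (counts scaled to a common library total, here after TMM scaling) and per kilobase of merged exons, a scale on which long genes gain nothing from their length. In the engineered table the highest members were HOXD9 (11.1 CPM per kb over 6 libraries), HOXC8 (9.42), HOXC9 (7.67), HOXD3 (6.77) and HOXD8 (5.25), which together made 68.7% of the summed HOX level on that scale. In the OmoMYC libraries alone HOXC6 (4.83 CPM per kb) stood just above HOXD8 (4.68), whereas HOXD8 (5.82) was above HOXC6 (3.29) with EGFP. In the parental table the order was HOXC8 (9.62 CPM per kb over 8 libraries), HOXD9 (8.21), HOXC9 (5.33), HOXD3 (4.48) and HOXD8 (3.66), together 70.3% of the sum. The ranges of HOXC8 and HOXD9 over libraries overlapped in both tables. Within each parental library HOXC8 was above HOXD9, whereas their order differed between engineered libraries. From HOXD9 down to HOXD8 the range of each parental gene lay above that of the next, whereas in the engineered table all neighbors from rank 1 to rank 10 overlapped. Bulk RNA cannot tell fewer expressing cells from less RNA per cell.

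**Figure D1:**
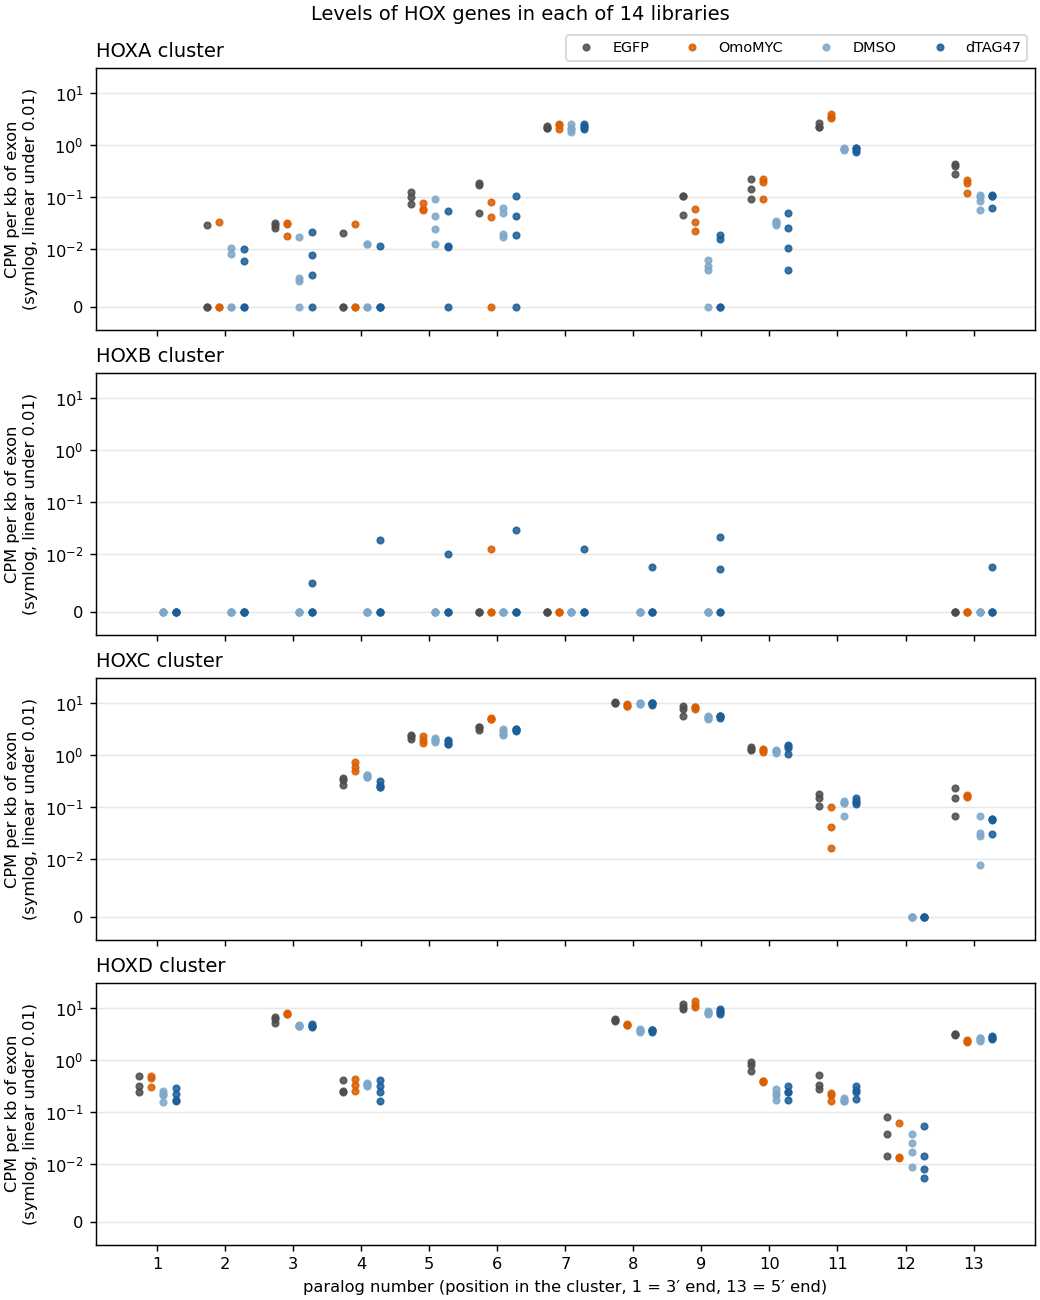
Each point is 1 of the HOX genes reported here in 1 of 14 libraries, by paralog number on the x axis, with CPM per kb of merged exons on a symmetric log y axis that is linear under 0.01, and 1 panel per cluster. The HOXC and HOXD members 8 and 9 and HOXD3 stand highest, and the HOXB panel is at or near 0 in every library.

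By cluster, summed CPM over the listed members ran from 62.2 to 72.2 in the EGFP libraries for HOXD, from 51.2 to 59.3 for HOXC and from 13.8 to 15.6 for HOXA. Within HOXA the level was uneven along the cluster. HOXA7 and HOXA11 held most of it, whereas HOXA2 and HOXA4 had at most 3 counts in every library of either table. Of the exon bases of HOXA7, 62.5% overlap HOXA-AS3 on the opposite strand, and the strand setting of the counting is not given. Reads of that antisense gene cannot be told apart from those of HOXA7. HOXA3, HOXA5 and HOXA6 passed 3 counts in at least 1 library and reached 8 counts at most, too few to be tested. HOXC genes were expressed from HOXC4 through HOXC10 in both tables, and HOXC12 had 0 counts in all 8 parental libraries. HOXC11 had 2 to 16 counts per engineered library and 9 to 26 counts per parental library. HOXC13 had 5 to 15 counts per engineered library and 1 to 8 counts per parental library. HOXD genes were expressed along the whole cluster except HOXD12, which had between 1 and 7 counts in each of the 14 libraries. HOXD1, HOXD4 and HOXD11 were low, at 8 to 36 counts per library. Of the exon bases of HOXD1, 60.1% overlap genes on the opposite strand, whose reads cannot be told apart from its own.

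The HOXB members were silent, with at most 3 counts in every library, apart from HOXB6 in 1 library. The 4 DMSO libraries, with 40861430 to 51199800 counts each, held 0 counts for all 10 HOXB genes, which allows each gene a level of up to 0.0582 to 0.0732 CPM (3 counts, counting error only). HOXB6, HOXB7 and HOXB13, the HOXB members listed in the engineered table, had 1 count in all over its 6 libraries. HOXB1, HOXB2, HOXB3, HOXB4, HOXB5, HOXB8, HOXB9 and HOXC12 were not listed there and were not analysed in engineered cells. In the library dTAG47 2, 14 counts fell on 7 HOXB genes, and the other 3 dTAG47 libraries held 2 in all. That library also had 88 genes with 2 or more counts and 0 in all other libraries, against 13 to 26 genes in the other 7 parental libraries. The 3 epithelial markers (EPCAM, CDH1 and KRT18) summed to 2.54 CPM in dTAG47 2, against 0.637 to 0.843 CPM in the other 7 parental libraries, and KRT18 had 46 counts in it and 0 in all others. The part of these other transcripts in the HOXB counts was not tested.

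A count near 0 in the engineered table was not by itself a sign of silence. Of 17227 identifiers shared by the tables, 80 had at most 3 counts in every engineered library and at least 1000 in every parental library, with none the other way round. None of the 80 was a HOX gene, and the 6 HOX genes silent in the engineered table had at most 4 counts in any parental library. The 9 markers of sympathoadrenal neuroblastoma (PHOX2A, HAND2, GATA3, ISL1, DBH, TH and MYCN among them) were all tested in both tables, while the summed level of hematopoietic markers was at most 1.20 CPM in any library and that of epithelial markers at most 1.58 CPM outside dTAG47 2. The 7 mesenchymal markers summed to 193 to 221 CPM with EGFP, 162 to 179 CPM with OmoMYC and 169 to 182 CPM in parental libraries. With OmoMYC 1 of the 7 rose (CD44, log2 fold change 1.73) and 2 fell (YAP1, -1.10, and VIM, -0.31), and their part in the HOX changes was not tested. MYC, whose row collects reads of the OmoMYC transgene, was at 0.568 to 0.689 CPM in EGFP and 513 to 527 CPM in OmoMYC libraries, as the labels give it. MYCN was at 2410 to 2900 CPM with EGFP and 2180 to 2310 CPM with OmoMYC. It was called lower by edgeR's quasi-likelihood test (log2 fold change -0.28, SE 0.07, adjusted p = 0.0103).

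After induction of OmoMYC, 10 of the 20 tested HOX genes passed an FDR of 0.05 in edgeR's quasi-likelihood test with Benjamini-Hochberg adjustment over all genes. Higher with OmoMYC were HOXA11, HOXC4, HOXC6 and HOXD3, and lower were HOXA13, HOXC11, HOXD8, HOXD10, HOXD11 and HOXD13. These 10 of 20 genes stood beside 53.0% of all 13803 genes tested (27.3% higher and 25.7% lower), so the HOX genes were called about as often as any gene. The median log2 fold change of the tested HOX genes was 0.11, beside 0.01 over all genes, and the median absolute log2 fold change was 0.30, beside 0.31. The median lay between -0.09 and 0.13 over 15 alternative fits, so its sign was not fixed.

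Calls in each direction were counted along the clusters. Among members 1 to 8, 3 of 9 tested genes rose and 1 fell, and among members 9 to 13, 1 of 11 rose and 5 fell. The last count was 3 without EGFP 2, without OmoMYC 1 or without OmoMYC 2, since HOXC11 and HOXD11 lost their calls. By cluster, 1 of 4 tested HOXA genes rose and 1 fell, 2 of 8 HOXC genes rose and 1 fell, and 1 of 8 HOXD genes rose and 4 fell. These counts stood beside 27.3% of all genes tested called higher and 25.7% called lower. The difference between positions or clusters was not tested. Groups did not overlap for 11 of the 20 genes, beside 62.3% of all genes tested. These were the 4 higher genes (32.0% of all genes) and 7 lower genes, the 6 called ones and HOXC8 (30.3%).

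**Figure D2:**
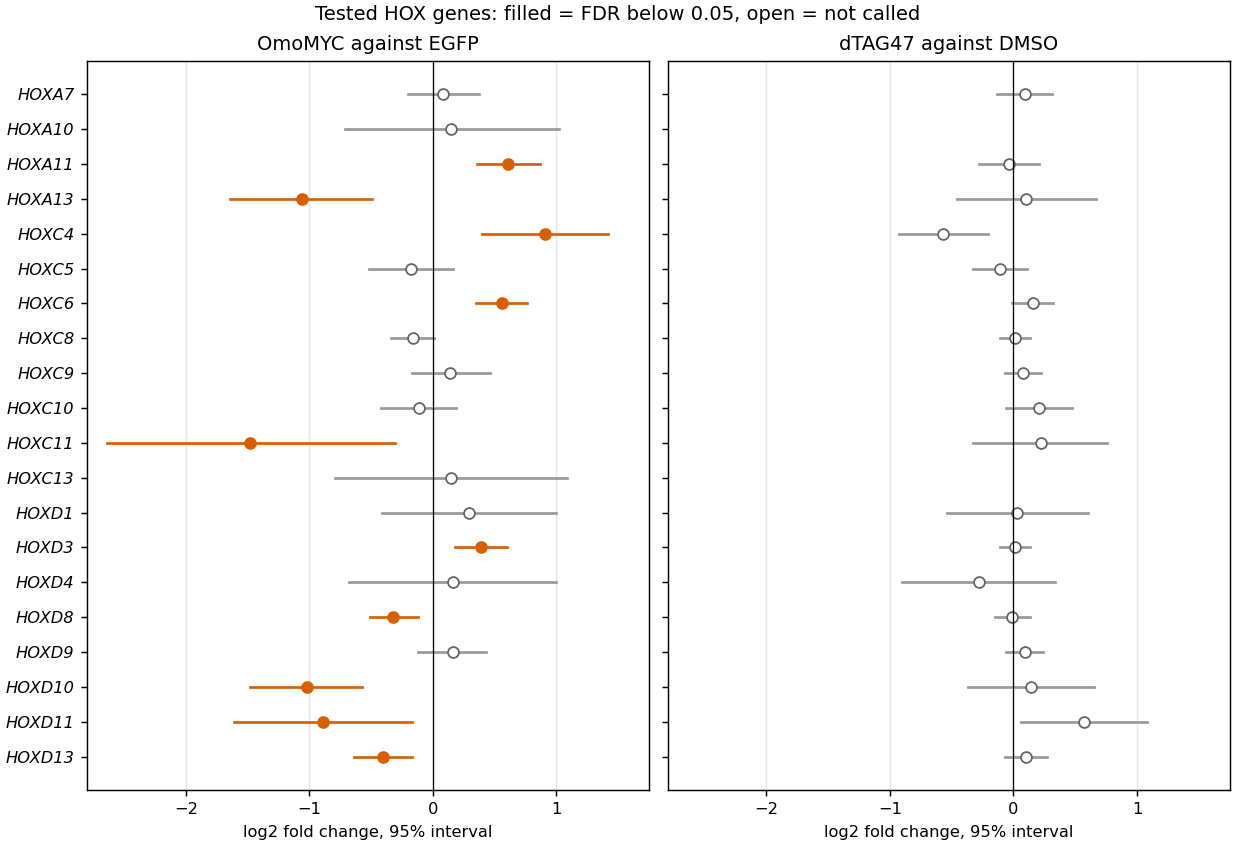
Log2 fold change with its 95% interval (x axis) of each tested HOX gene (y axis, in cluster order), for OmoMYC against EGFP and for dTAG47 against DMSO, with filled points for genes at an FDR below 0.05. With OmoMYC 10 genes are filled, 4 to the right and 6 to the left of 0, and with dTAG47 none is.

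The anterior and central members that rose were HOXD3, HOXC4 and HOXC6. HOXD3, a member of paralog group 3 that patterns the neck, was at 19.1, 22.0 and 24.0 CPM in the EGFP libraries and 29.0, 27.9 and 28.2 CPM in the OmoMYC libraries. All 3 OmoMYC libraries lay above all EGFP libraries, and HOXD3 rose 1.31-fold (log2 fold change 0.39, SE 0.09, 95% interval 0.18 to 0.60, adjusted p = 0.00623). Its log2 fold change was 0.16 after a correction for GC content and length, still past the threshold (adjusted p = 0.0272). Of the exon bases of HOXD3, 14.1% overlap antisense genes on the opposite strand, whose reads cannot be told apart from its own.

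HOXC6, which marks the forelimb level of the spinal cord, was at 10.4, 12.0 and 11.8 CPM with EGFP and 17.2, 16.5 and 16.4 CPM with OmoMYC. The groups were far apart compared with their spread, and HOXC6 rose 1.47-fold (log2 fold change 0.56, SE 0.09, interval 0.35 to 0.76, adjusted p = 0.000708), the smallest adjusted p of any HOX gene. HOXC4, the 3′-most HOXC gene, was at 1.01, 0.895 and 0.723 CPM with EGFP and 1.60, 1.38 and 2.01 CPM with OmoMYC. It rose 1.87-fold without overlap between the groups (log2 fold change 0.91, SE 0.23, interval 0.40 to 1.42, adjusted p = 0.00748), on 21 to 61 counts per library. Of the exon bases of HOXC4, 17.5% lie in HOXC6 exons on the same strand, and 16.1% of those of HOXC6 lie in HOXC4 or HOXC9, so these genes could share or lose reads to each other. HOXC5, annotated in the same stretch, did not pass the test (log2 fold change -0.18, interval -0.52 to 0.16), but was called lower after the GC and length correction (log2 fold change -0.38, adjusted p = 0.0271). Of the exon bases of HOXC5, 67.3% overlap other annotated genes on the same strand.

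HOXA11 was the posterior member that rose. It acts in the forearm, the kidney and the uterus, and was at 6.91, 5.91 and 5.99 CPM with EGFP and 9.38, 10.6 and 8.85 CPM with OmoMYC. Each OmoMYC library exceeded each EGFP library, and HOXA11 rose 1.53-fold (log2 fold change 0.61, SE 0.12, interval 0.36 to 0.87, adjusted p = 0.00146). Of its exon bases, 27.2% overlap HOXA11-AS on the opposite strand, and the strand setting of the counting is not given in the sources used here, so reads of the antisense gene cannot be told apart from its own.

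HOXA13, the 5′-most HOXA gene and the neighbor of HOXA11, went the other way. It was at 1.96, 1.40 and 2.17 CPM with EGFP and 0.955, 1.06 and 0.592 CPM with OmoMYC. No OmoMYC library reached the lowest EGFP library, and HOXA13 was at 0.478 of its EGFP level (log2 fold change -1.06, SE 0.26, interval -1.64 to -0.49, adjusted p = 0.00578). Between the members of this pair, which both take part in patterning limbs and the urogenital tract, the calls were opposite. HOXA7, a thoracic member that was the highest HOXA gene per kb in parental cells, was at 5.17, 5.05 and 5.65 CPM with EGFP and 6.14, 5.84 and 4.83 CPM with OmoMYC, with overlapping groups (log2 fold change 0.08, interval -0.20 to 0.37).

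Of the 5′ HOXD genes, HOXD10, HOXD11 and HOXD13 fell. HOXD13, the terminal gene, which shapes the digits, was at 7.07, 7.49 and 7.65 CPM with EGFP and 5.56, 5.79 and 5.39 CPM with OmoMYC. The groups were separate, and HOXD13 was at 0.755 of its EGFP level (log2 fold change -0.40, SE 0.11, interval -0.64 to -0.17, adjusted p = 0.00846). HOXD10, a gene of lumbar motor neurons, was at 1.99, 1.54 and 2.24 CPM with EGFP and 0.955, 0.934 and 0.954 CPM with OmoMYC. That drop to 0.493 of the EGFP level was the deepest among HOX genes above 1 CPM in EGFP after that of HOXA13 (log2 fold change -1.02, SE 0.21, interval -1.48 to -0.57, adjusted p = 0.00211). HOXD11 fell as well, its counts lying between 17 and 30 with EGFP and between 13 and 15 with OmoMYC (log2 fold change -0.89, SE 0.33, interval -1.61 to -0.17, adjusted p = 0.0393). This call was lost by DESeq2 (adjusted p = 0.0735) and without EGFP 2, OmoMYC 1, OmoMYC 2 or OmoMYC 3 (adjusted p up to 0.16). HOXD10 and HOXD11 share exon bases on the same strand, 18.2% and 21.4% of their lengths.

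HOXD8 lies at the center of its cluster and was at 15.0, 16.1 and 14.8 CPM with EGFP and 12.3, 12.6 and 11.9 CPM with OmoMYC. It was lower in each OmoMYC library, at 0.804 of its EGFP level (log2 fold change -0.32, SE 0.09, interval -0.51 to -0.12, adjusted p = 0.0118). HOXD9, next to it and the highest HOXD gene per kb, was at 17.4, 19.6 and 22.0 CPM with EGFP and 20.8, 19.3 and 25.6 CPM with OmoMYC, and the groups overlapped (log2 fold change 0.16, interval -0.12 to 0.43). Of the exon bases of HOXD8, 24.4% overlap HOXD-AS2 on the opposite strand, whose reads cannot be told apart from those of HOXD8.

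In the HOXC cluster the posterior gene that fell was HOXC11, whose counts lay between 10 and 16 with EGFP and between 2 and 10 with OmoMYC (log2 fold change -1.48, SE 0.53, interval -2.64 to -0.31, adjusted p = 0.0362). Without OmoMYC 3 its log2 fold change was -2.36 (adjusted p = 0.0097). The lowest EGFP and the highest OmoMYC library both had 10 counts. The call of HOXC11 was lost when EGFP 2, OmoMYC 1 or OmoMYC 2 was left out, with its adjusted p between 0.0097 and 0.123 over all alternatives. HOXC8, the highest HOXC gene per kb, was at 23.4, 24.5 and 24.2 CPM with EGFP and 21.4, 20.7 and 22.4 CPM with OmoMYC. All OmoMYC libraries were below all EGFP libraries, yet the test was not passed (log2 fold change -0.16, interval -0.34 to 0.01, adjusted p = 0.107). HOXC9, at 12.2 ± 2.59 and 13.4 ± 0.666 CPM (SD, n = 3), and HOXC10, at 3.08 ± 0.209 and 2.84 ± 0.176 CPM, had overlapping groups.

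**Figure D3:**
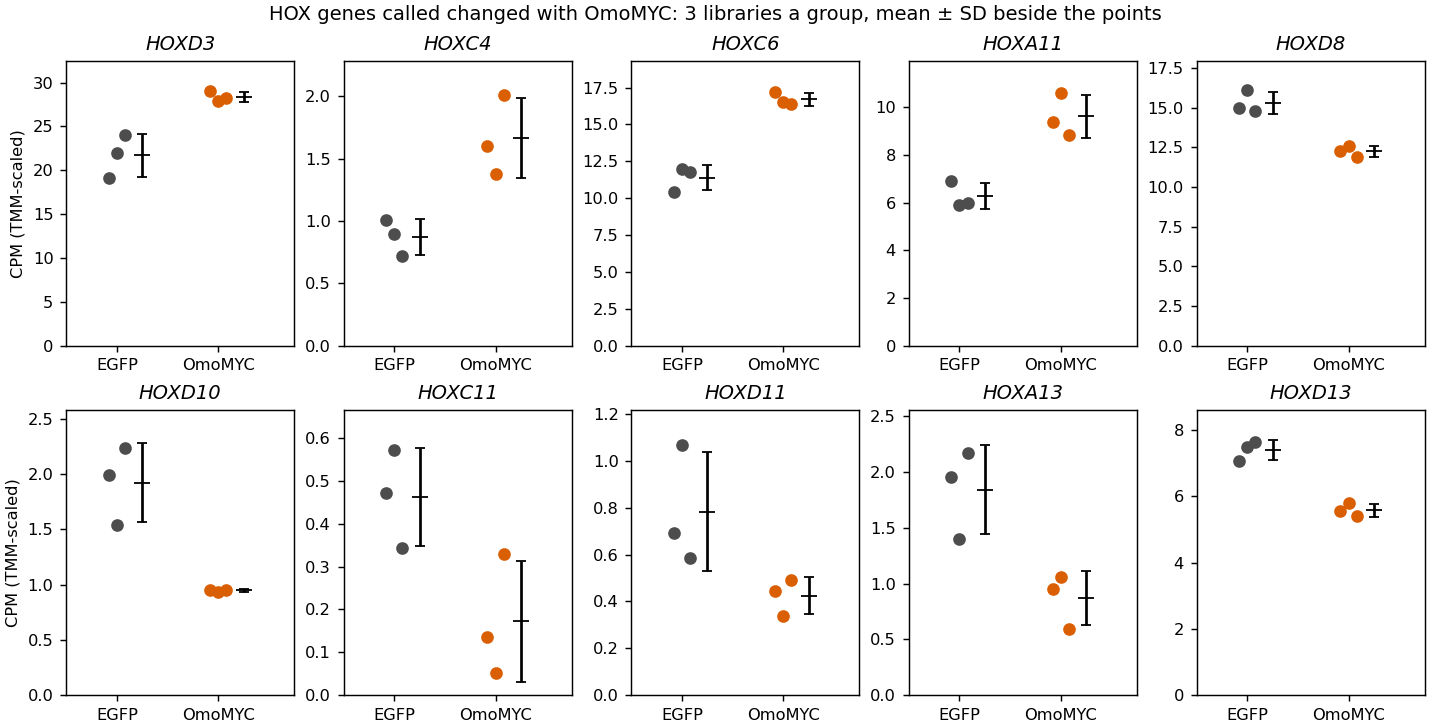
CPM (y axis, from 0) of the HOX genes called with OmoMYC, 1 panel per gene, in the 3 EGFP and 3 OmoMYC libraries (points), with the mean ± SD beside them. In each panel the groups are separate, and HOXA13, HOXD10 and HOXC11 drop to under 0.5 of the EGFP mean. For HOXC11 the lowest EGFP and the highest OmoMYC library both had 10 counts and differ by scaling only.

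The other tested members, HOXA10, HOXC13, HOXD1 and HOXD4, had log2 fold changes between 0.15 and 0.29 with 5 to 36 counts per library. Their intervals reached from -0.79 to 1.09, so changes of the size seen for HOXA11 or HOXD13 were not detectable in them at this depth. HOXA3, HOXA5, HOXA6, HOXA9 and HOXD12 had 0 to 10 counts per library and were not tested. No listed HOX gene was at or under 3 counts in every library of a group and above 3 in every library of the other group. By that rule no listed member differed between silent and counted, and members not listed could not be examined.

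Single members changed in both directions, and the mean sums of the HOXA, HOXC and HOXD clusters were somewhat higher with OmoMYC. Summed HOXA CPM was 14.8 ± 0.907 with EGFP and 17.2 ± 1.70 with OmoMYC, that of HOXC 55.9 ± 4.22 and 59.8 ± 2.03, and that of HOXD 67.9 ± 5.13 and 70.7 ± 2.68 (SD, n = 3). The ranges of the groups overlapped in each of these clusters. Over all HOX genes the sum ran from 129 to 144 CPM with EGFP and from 145 to 151 with OmoMYC, without overlap and without a test.

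Several posterior genes that moved with OmoMYC also stood at other levels in parental cells. HOXA11 averaged 2.23 ± 0.0523 CPM in the DMSO libraries (n = 4), 6.27 ± 0.555 in EGFP and 9.60 ± 0.878 in OmoMYC (n = 3 each). For HOXA13 the means were 0.444 ± 0.118, 1.84 ± 0.399 and 0.870 ± 0.247 CPM. For HOXD10 they were 0.548 ± 0.113, 1.92 ± 0.354 and 0.948 ± 0.0116 CPM. HOXA10, on few counts and not tested in parental cells, was at 0.118 ± 0.0083, 0.567 ± 0.239 and 0.630 ± 0.255 CPM. HOXA11, HOXA13 and HOXD10 were thus lower in each DMSO library than in each EGFP or OmoMYC library, as were HOXC9, HOXD3, HOXD8 and HOXD9. These were 7 of the 18 HOX genes tested in both tables, beside 23.4% of the 13424 genes tested in both, and 0 HOX genes were higher in each DMSO library, beside 11.6%. The means of HOXA13 and HOXD10 with OmoMYC were nearer to the parental level than those with EGFP, whereas HOXA11 was farther from it and HOXC11, at 0.355 ± 0.0921, 0.464 ± 0.115 and 0.172 ± 0.142 CPM, was on its other side. HOXD13, at 6.05 ± 0.393, 7.40 ± 0.299 and 5.58 ± 0.198 CPM, and HOXC8, at 23.2 ± 0.492, 24.0 ± 0.550 and 21.5 ± 0.852 CPM, differed far less. The tables were scaled separately and no test was made across them, and vector, serum, doxycycline, time and table cannot be told apart in this comparison.

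**Figure D4:**
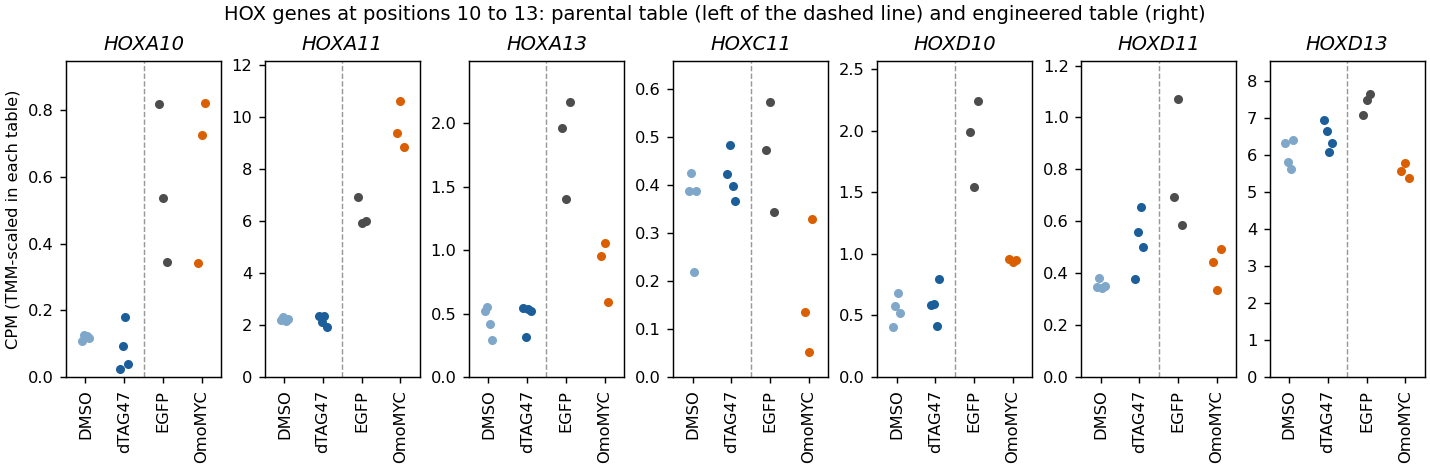
CPM (y axis, from 0, scaled within each table) of 7 HOX genes at positions 10 to 13 in DMSO and dTAG47 parental libraries (left of the dashed line) and in EGFP and OmoMYC libraries (right). HOXA10, HOXA11, HOXA13, HOXD10 and, by a small margin, HOXD13 are lower in all parental libraries than in all EGFP libraries.

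In parental cells dTAG47 changed no HOX gene past the threshold. Of 18 tested members 0 passed an FDR of 0.05 in edgeR's quasi-likelihood test, beside 0.159% of the 14470 genes tested (0.117% higher and 0.0415% lower), and DESeq2 and limma-voom also called 0. At an unadjusted p under 0.05 there were 2 by edgeR (HOXC4 and HOXD11), 2 by limma-voom and 1 by DESeq2, and edgeR's 2 of 18 stood beside 7.28% of all genes tested. HOXC4 was at 1.12, 1.04, 1.05 and 1.11 CPM with DMSO and 0.729, 0.650, 0.657 and 0.869 CPM with dTAG47. Its groups did not overlap, which held for 3.34% of all genes tested and for 1.47% on the lower side, and it was the only HOX gene with separate groups (log2 fold change -0.57, SE 0.17, interval -0.93 to -0.21, adjusted p = 0.542). HOXD11 had 14 to 18 counts with DMSO and 16 to 33 with dTAG47, with overlapping groups (log2 fold change 0.57, SE 0.24, interval 0.06 to 1.08, adjusted p = 0.673).

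The high members were measured tightly in this comparison. HOXC8 was at 22.9, 23.7, 22.6 and 23.5 CPM with DMSO and 23.7, 21.5, 24.0 and 24.3 CPM with dTAG47, with a log2 interval of -0.11 to 0.13. HOXD9 was at 13.8, 14.8, 16.0 and 14.9 CPM with DMSO and 16.0, 14.2, 17.4 and 15.7 CPM with dTAG47, with an interval of -0.06 to 0.24. HOXA7 was at 4.32, 4.89, 5.17 and 6.05 CPM with DMSO and 5.32, 4.97, 5.53 and 5.99 CPM with dTAG47, with an interval of -0.13 to 0.31. The groups of all 3 genes overlapped, and for 11 of the 18 tested members the 95% interval lay within 0.5 of 0 on the log2 scale. HOXA11, HOXC6, HOXD3, HOXD8 and HOXD13, called with OmoMYC, were among them, with log2 fold changes between -0.04 and 0.16. HOXA10, HOXC13 and 5 further members were above 3 counts in at least 1 library but were not tested, and 14 members were silent.

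Genes that work with or upstream of the HOX clusters were read from lists written by role, to be held against the 27.3% of all genes called higher and 25.7% called lower with OmoMYC. Of the 8 tested cofactors of the PBX and MEIS classes, 3 rose and 3 fell with OmoMYC (median log2 fold change -0.12, beside 0.01 over all genes). PBX3, a DNA-binding partner of HOX proteins, rose from 40.6 ± 2.76 to 92.7 ± 2.30 CPM (n = 3, log2 fold change 1.19, SE 0.08, adjusted p = 1.01e-06). MEIS3 rose with a log2 fold change of 0.78, MEIS2 fell with -0.69, and PKNOX2 fell with -0.39, so the partners were not moved in 1 direction.

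Among 13 tested genes of retinoid synthesis, breakdown and reception, 1 rose and 4 fell (median log2 fold change -0.16). ALDH1A1, which makes retinoic acid, fell from 4.20 ± 0.143 to 1.29 ± 0.361 CPM (log2 fold change -1.71), CRABP2, which carries it, fell from 49.7 ± 5.20 to 23.1 ± 1.03 CPM (log2 fold change -1.11), and CYP26B1, which breaks it down, rose from 1.51 ± 0.167 to 2.41 ± 0.313 CPM (log2 fold change 0.67). Of 6 tested axial regulators, 2 rose, GDF11 (log2 fold change 0.49) among them, and LIN28B fell (-0.50). GDF11 is known for turning on posterior HOX genes in the trunk.

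Chromatin regulators of the clusters moved in both directions. Of 17 tested MLL and trithorax-type genes 6 rose and 4 fell (median log2 fold change 0.08), with DPY30 at -0.57, MLLT3 at 0.53 and KDM6B, which removes a Polycomb mark, at 0.47. Of 22 tested Polycomb genes 6 rose and 9 fell (median -0.13, beside 27.3% and 25.7% of all genes called), with rises of CBX7 (log2 fold change 1.44) and CBX8 (0.98) and a fall of MTF2 (-0.55). KMT2A and CBX2 belong to the 80 identifiers at or near 0 in the engineered table alone and gave no value there. PHF1, among the Polycomb genes that fell, was read there under another identifier than in the parental table. It had 68 to 141 counts per engineered library and 1197 to 1681 per parental library. RING1, PBX2 and RXRB also stood under other identifiers there, with too few counts to be tested.

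Of 10 tested homeobox genes of related classes outside the clusters, 2 rose and 6 fell (median log2 fold change -0.55), among them MSX2 at 1.18 and DLX5 at -0.92. Of 27 tested genes that flank the clusters within 500 kb, 6 rose and 7 fell (median 0.00). CALCOCO1, near HOXC, rose from 9.29 ± 0.264 to 30.1 ± 2.32 CPM (log2 fold change 1.69), whereas GTSF1 and ITGA5, also near HOXC, fell (-1.30 and -1.29). Antisense RNAs and microRNA hosts of the clusters were not analysed here. With dTAG47, 0 genes of each of these lists were called by edgeR.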

How the data were processed

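RNA-seq counts per gene were deposited by the authors in a table of engineered CHP-134 cells (EGFP and OmoMYC, 3 libraries each) and a table of parental cells (DMSO and dTAG47, 4 libraries each). The authors depleted ribosomal RNA, aligned reads to hg19 with STAR and counted with featureCounts. Per the labels, DESeq2 was also used. The annotation and strand setting of the counting are not given in the sources used here. Libraries held 28060817 to 38358128 counts in the engineered and 40861430 to 53451641 counts in the parental table. The labels number the replicates and the study calls them biological, with no further detail of their origin.

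Each table was fitted by itself in R 4.3.3 with edgeR 4.0.16 (filterByExpr, TMM scaling, robust quasi-likelihood test) and Benjamini-Hochberg adjustment over all genes tested at an FDR of 0.05. Intervals cover 95%. Genes with at most 3 counts in every library were taken as silent, and levels are TMM-scaled CPM. The fits were tested on simulated data. Alternatives were DESeq2 1.42.0, limma-voom (limma 3.58.1), other scalings and filters, a replicate block, a GC and length correction, factors for replicate numbers and leaving out each library. Values in every library are given for called genes with a group mean of at least 1 CPM and for the highest gene per kb of each cluster, and from each list at most 4 called genes are named. HOXC4 with dTAG47 and the genes set side by side across the tables were chosen after their values were seen. Members and lists were chosen with earlier results of these data known. Some genes are counted but not reported by name here.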

Additional observations from a re-analysis of the deposited data

Results flagged for a closer look

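In 3 of 44 groups of 4 parental libraries, 1 library stood apart from the other 3 (by Dixon's test, a gap over range above its 95% critical value for 4 values), and chance flags about 1 in 20 groups. All 3 were the library dTAG47 2. For HOXA13, a posterior HOXA gene, the CPM of dTAG47 2 was 0.316, below 0.522 to 0.541 in the other dTAG47 libraries (ratio 0.914). For HOXC9 it was 8.46 CPM, below 9.29 to 9.38 in the others (ratio 0.905). For the summed CPM of the HOXB genes, 14 counts in dTAG47 2 gave a ratio of 0.910, with 0 counts in the 4 DMSO libraries. Leaving out dTAG47 2 gave 0 HOX calls, the same as with it.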

How the results depend on the processing

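The higher side with OmoMYC held 4 HOX genes in all 15 alternatives, and they were the same 4 genes. The lower side ran from 4 to 7 genes when each library was left out in turn, and from 5 to 7 otherwise. HOXC11 and HOXD11, with few counts, lost their calls without EGFP 2, OmoMYC 1 or OmoMYC 2. HOXD11 also lost its call without OmoMYC 3 and by DESeq2 (5 lower), and a minimum of 10 counts in every library removed HOXC11 (5 lower). HOXC8 joined without EGFP 1 (7 lower) and HOXC5 with the GC and length correction (7 lower). No called HOX gene changed direction in any of these fits. Members that were not called did, with HOXD9 at -0.11 after the GC and length correction and HOXC9 at -0.04 without EGFP 1. With dTAG47, 0 HOX genes were called in all 20 alternatives, leaving out each library included.

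With a replicate block, OmoMYC gave 4 higher and 6 lower HOX genes and dTAG47 gave 0 and 0, so the block changed no call. Libraries with the same number deviated together only in part, with correlations of 0.076, -0.0697 and 0.293 in the engineered and 0.0093, 0.109, 0.101 and 0.159 in the parental table. The number was the best match for 3 of 6 and 3 of 8 libraries, so the numbers were not taken as pairs.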
